A study of Homo sapiens with 3 samples.

Results

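MDA-MB-231 cells to which arginine had been returned were compared with cells kept under arginine withdrawal for the whole experiment. MDA-MB-231 is an established human breast carcinoma line, taken from a pleural effusion, that the field classes as basal and mesenchymal-like. ADI-PEG20 is arginine deiminase coupled to polyethylene glycol, an enzyme that converts the arginine in the medium to citrulline and ammonia. The first array held RNA of cells that received ADI-PEG20 at 0.3 µg/ml and were left with it for 48 h. The other array held RNA of cells that had 24 h of ADI-PEG20 and then L-arginine, 420 µg/ml, for the remaining 24 h. For these cells the label prints the ADI-PEG20 dose as 0.3 with its unit cut short, and it does not say whether the enzyme was removed before arginine was added. An array of untreated cells, collected at 48 h, is given beside the others as a level. The study has no array of cells after 24 h of ADI-PEG20 alone. A level regained after arginine therefore cannot be told apart from one that had not yet changed at 24 h. All cells grew in the same medium with fetal bovine serum.

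The comparison thus used 2 of the 3 arrays in the study, 1 array on each side, and took in every gene with a probe. Named probes covered 20039 genes, of which 11062 exceeded background on either of the compared arrays or both. Of these, 9989 were above background on both, 529 only under ADI-PEG20 and 544 only after arginine. Values are array intensities, in arbitrary units, and differences are log2 of the background-corrected intensity after arginine minus the same under continued ADI-PEG20. A value of -1 is therefore a 2-fold lower corrected level after arginine. A fold given as at least some size is also of corrected values and holds only under that correction. Near background, such folds are larger than the ratio of the intensities printed. With no replicate there was no test, no error from repeated cultures and no p-value, and every difference below is a difference between these arrays. A gene was represented by its brightest probe, and other probes of the gene, where they were above background, were used to see whether they gave the same direction.

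As background, cells short of an amino acid accumulate uncharged tRNA, which activates the kinase GCN2. GCN2 phosphorylates the initiation factor eIF2 alpha, which lowers most protein synthesis but favours translation of the transcription factor ATF4. ATF4 pairs with C/EBP-family proteins and binds a composite C/EBP-ATF element in genes of amino acid synthesis, uptake and tRNA charging. Genes of mitosis form another well studied group, in which many promoters carry a cell cycle homology region next to CCAAT boxes and are most active late in the cell cycle. Both groups were among those furthest from 0 in the comparison.

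The first set of sequences is shown because the genes furthest below their ADI-PEG20 level include targets of ATF4. The promoters of ASNS, asparagine synthetase, and CHAC1, a glutathione-degrading enzyme, are given as RefSeq (GRCh38.p14) has them, from 250 bases before to 50 after the gene start, on the strand of the gene. ASNS lies at chr7:97872359-97872658 on the minus strand and CHAC1 at chr15:40953221-40953520 on the plus strand. Capitals mark the match to the C/EBP-ATF element, searched as TGATGNAA on both strands, so that the match in CHAC1 reads on the opposite strand. The match starts 68 bases before the gene start in ASNS and 209 before it in CHAC1.
ASNS: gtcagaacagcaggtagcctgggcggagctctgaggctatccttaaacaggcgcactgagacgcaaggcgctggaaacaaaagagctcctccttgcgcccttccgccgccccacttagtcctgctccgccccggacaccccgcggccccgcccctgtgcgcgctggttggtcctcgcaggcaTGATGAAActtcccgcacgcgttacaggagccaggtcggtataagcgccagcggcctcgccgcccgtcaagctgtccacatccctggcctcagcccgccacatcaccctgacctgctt
CHAC1: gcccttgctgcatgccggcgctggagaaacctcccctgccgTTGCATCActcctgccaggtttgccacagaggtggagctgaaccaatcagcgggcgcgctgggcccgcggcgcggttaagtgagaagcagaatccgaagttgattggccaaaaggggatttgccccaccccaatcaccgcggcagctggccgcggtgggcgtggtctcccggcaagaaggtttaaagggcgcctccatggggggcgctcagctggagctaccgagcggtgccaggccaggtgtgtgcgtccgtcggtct

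The search found a match in 14 genes that were lower after arginine by 2-fold or more. Besides ASNS and CHAC1 they were AARS1, MARS1, IARS1, ATF3, BCAT1, S100P, SLC3A2, RSL24D1, SUN3, TMEM268, PCOTH and ZNF436. Shorter windows are shown for 6 of them, chosen after their values were seen. Each is read on the strand that holds the match, with 10 flanking bases. The windows include AARS1, MARS1 and IARS1, which charge tRNAs with alanine, methionine and isoleucine (chr16:70289676-70289703, chr12:57488054-57488081 and chr9:92293693-92293720). They also include the stress factor ATF3 (chr1:212565206-212565233), the branched-chain aminotransferase BCAT1 (chr12:24949132-24949159) and the calcium-binding protein S100P (chr4:6693745-6693772). The strands are plus for AARS1, IARS1 and ATF3 and minus for MARS1, BCAT1 and S100P.
AARS1: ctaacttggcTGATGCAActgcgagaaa
MARS1: aatccctcgcTGATGCAAccggaaccgg
IARS1: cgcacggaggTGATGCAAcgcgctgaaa
ATF3: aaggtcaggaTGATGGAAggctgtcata
BCAT1: gtcttcctgcTGATGCAAtccgctaggt
S100P: tgctcagttcTGATGAAAtgcatcgttg

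The second set stands for the genes that were higher after arginine. It holds the promoters of CENPA, the centromeric histone (chr2:26785806-26786105, plus strand), and MKI67, the proliferation marker Ki-67 (chr10:128126374-128126673, minus strand). Capitals mark the cell cycle homology region, searched as TTTGAA on both strands, with 1 match in CENPA and 2 in MKI67. Most promoters of genes higher by 2-fold or more lacked these letters, which 42 of 183 held (22.95%).
CENPA: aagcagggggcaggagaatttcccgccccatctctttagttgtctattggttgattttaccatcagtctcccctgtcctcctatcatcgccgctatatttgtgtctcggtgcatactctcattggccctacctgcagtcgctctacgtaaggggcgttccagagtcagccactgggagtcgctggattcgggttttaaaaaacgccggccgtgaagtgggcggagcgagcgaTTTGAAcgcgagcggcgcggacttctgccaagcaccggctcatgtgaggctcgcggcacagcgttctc
MKI67: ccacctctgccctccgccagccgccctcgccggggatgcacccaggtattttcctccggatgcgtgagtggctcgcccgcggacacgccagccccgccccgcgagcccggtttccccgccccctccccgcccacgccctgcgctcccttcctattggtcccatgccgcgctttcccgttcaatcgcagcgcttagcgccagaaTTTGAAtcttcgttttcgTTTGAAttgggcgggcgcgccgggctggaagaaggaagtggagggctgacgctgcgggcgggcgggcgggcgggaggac

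After arginine, 210 genes, 1.90% of those tested, were lower by 2-fold or more, and 228 genes, 2.06%, were higher by as much. These shares are the ones to set beside the 2-fold counts of each list below. At 1.5-fold the counts were 980 (8.86%) and 1094 (9.89%). By any amount, 5542 genes (50.1%) were lower and 5514 (49.8%) higher. The largest differences were on the lower side. By 4-fold or more, 17 genes (0.154%) were lower and 3 (0.0271%) were higher. The median over all genes was -0.0008 and the central 95% of genes lay between -0.93 and 0.96. The deposited arrays share the same minimum and maximum and nearly the same median. An even split and a median near 0 were therefore largely given in advance. Where both arrays exceeded background, 135 of 9989 genes (1.35%) were lower by 2-fold or more and 151 (1.51%) higher. With the dim reading of a gene seen on 1 array raised to the background limit, which gives the smallest difference it allows, the counts were 145 (1.31%) and 164 (1.48%). The counts rest on the background correction, without which 58 genes were lower and 48 higher by 2-fold or more. Dim probes gave many of the 2-fold differences: when the genes were ranked by intensity into 5 equal bins, the dimmest bin, with a median intensity of 171, held 76 of those lower and 84 of those higher. The brightest bin held 28 and 21.

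The called genes were then set beside the untreated array. Genes lower by 2-fold or more had a median intensity of 395 under ADI-PEG20, 213 after arginine and 233 in untreated cells. Genes higher by 2-fold or more had medians of 203 under ADI-PEG20, 314 after arginine and 316 in untreated cells. Both groups were therefore nearer to the untreated level after arginine than under continued ADI-PEG20. The medians over all genes tested were 411, 413 and 414, which the shared range and median of the arrays keep close. Since both treated arrays are single, a level near the untreated one is a statement about these arrays. Without an array at 24 h of ADI-PEG20, it does not show that the level had moved and come back.

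**Figure D1:**
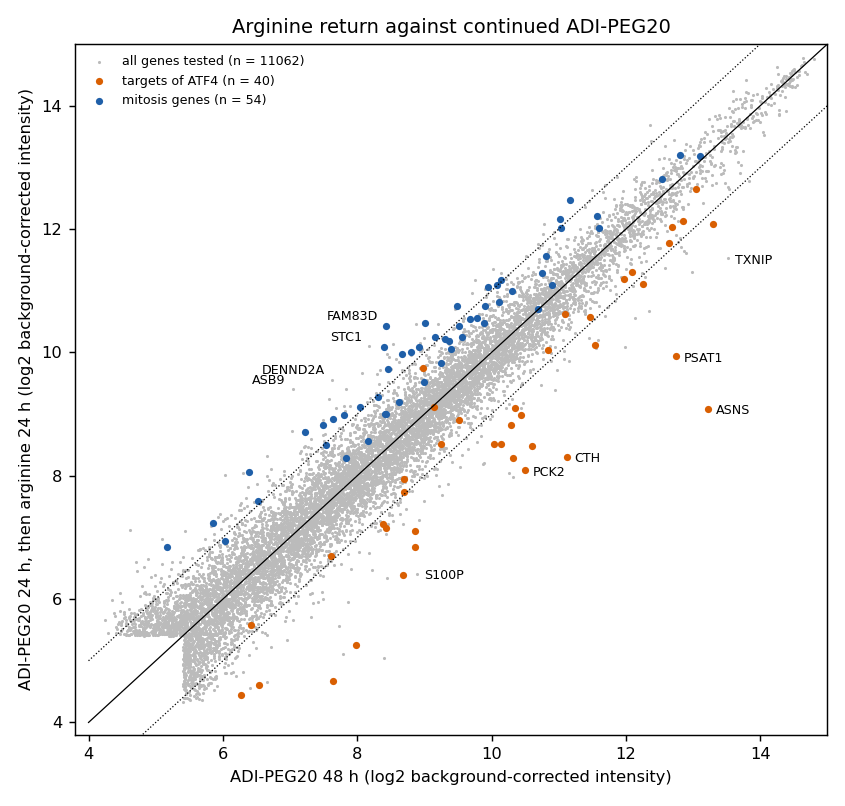
Log2 background-corrected intensity of each gene tested under continued ADI-PEG20 (x axis) and after arginine return (y axis), 1 array on each axis. Grey points are all 11062 genes, orange points 40 ATF4 targets and blue points 54 mitosis genes, and dotted lines mark 2-fold. Orange points lie below the diagonal except ATF5, and blue points lie on or above it.

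Asparagine synthetase was furthest below its ADI-PEG20 level. ASNS, which makes asparagine from aspartate and glutamine, read 664 untreated, 9722 with ADI-PEG20 and 665 after arginine. The level after arginine was 17.65-fold lower than under ADI-PEG20, a difference of -4.14, and close to that in untreated cells. On the other ASNS probe the intensity was 3040 with ADI-PEG20 and 367 after arginine, a difference of -3.57.

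Enzymes of serine and cysteine synthesis were also far below their ADI-PEG20 level. PSAT1, the aminotransferase of serine synthesis, read 1121 untreated, 7022 with ADI-PEG20 and 1101 after arginine, a difference of -2.82. PHGDH, the first enzyme of that route, read 189, 532 and 205 in the same order, a difference of -2.29, with the lower values close to the background limit of 163.7. CTH, cystathionine gamma-lyase, which releases cysteine, read 390, 2346 and 439, a difference of -2.81. The same pattern of a high ADI-PEG20 value between lower ones held for all 3 enzymes. CTH had 3 probes above background, and the others gave -2.99 and -2.895. PSPH, which completes serine synthesis, was lower by 1.46 on its brightest probe and by 2.20 on the other. The latter probe read 191 after arginine, close to background. PYCR1, of proline synthesis, differed by -1.64, with -0.88 and -0.38 on dimmer probes, and MTHFD2, of mitochondrial folate metabolism, by -1.53.

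Over the list of amino acid synthesis enzymes, 25 of 31 were above background, 18 were lower and 9 of these by 2-fold or more, and none was higher by 2-fold. The list's median of -0.25 was far smaller than the values of its leading members. SHMT1, the cytosolic serine hydroxymethyltransferase, was on the other side at 0.82, with 0.215 and 0.705 on dimmer probes. Its mitochondrial counterpart SHMT2 was at -0.79. OAT, ornithine aminotransferase, was at 0.81, with 0.29 on its other probe, and the proline and ornithine enzyme ALDH18A1 was at -0.03. PCK2, mitochondrial phosphoenolpyruvate carboxykinase, which feeds carbon from the mitochondrion to serine synthesis, read 375 untreated, 1567 with ADI-PEG20 and 394 after arginine. Its difference was -2.41, with -1.71 and -0.39 on probes of lower intensity. The probe at -1.71 read 172 after arginine, close to background.

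ATF4 targets were lower after arginine almost without exception. Of 47 genes listed, 44 had a probe and 40 were above background on at least 1 array, 36 of them on both. Of the 40, 39 were lower, 23 of them by 2-fold or more, and the median was -1.24, beside -0.001 over all genes tested. Counting dim members at their bound gave a median of -1.16 and 22 genes lower by 2-fold or more. The 4 targets seen on 1 array only, CHAC1, SLC6A9, SLC7A11 and SLC1A4, were above background only under ADI-PEG20 and so had to be lower after arginine. STC2, FGF21, INHBE and ALDH1L2 were not above background on either array. In untreated cells the list stood near its level after arginine, with a median difference of -0.05 between those arrays.

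Secreted and regulatory ATF4 targets were on the same side as the enzymes. GDF15, a stress-induced cytokine, read 551 untreated, 1676 with ADI-PEG20 and 479 after arginine, a difference of -2.12. TRIB3, a pseudokinase that restrains ATF4, read 479, 1403 and 435, a difference of -2.03. NUPR1, a stress-induced nuclear regulator, read 213, 586 and 236, a difference of -2.02, and -2.88 on its other probe. That other probe read 166 after arginine, close to background. After arginine, GDF15 and TRIB3 were below the untreated reading and NUPR1 was above it. CHAC1 read 152, 320 and 143, and its value after arginine was within background. On background-corrected values it was at least 4.69-fold lower, more than the ratio of the readings. XPOT, which exports tRNAs from the nucleus, differed by -1.27, and EIF4EBP1, a repressor of cap-dependent translation, by -1.17.

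Among the transcription factors, ATF4 itself read 7338 untreated, 14772 with ADI-PEG20 and 7147 after arginine. The difference was -1.06 on this probe, -1.26 on the next and -0.17 on the dimmest. ATF3, a repressor and activator of the same family, was at -1.75 and CEBPG, a C/EBP partner of ATF4, at -1.26. CEBPB was at -0.85, JDP2 at -0.91 and PPP1R15A, the subunit that directs dephosphorylation of eIF2 alpha, at -0.72. DDIT3, which encodes the stress factor CHOP, read 747, 854 and 599, so that its level after arginine was also below that of untreated cells, and the difference was -0.62. The exception among the targets was ATF5, which read 878, 626 and 982 and was higher after arginine by 0.77. In the wider list of ATF and C/EBP regulators 15 of 27 were lower, 4 of them by 2-fold or more, with a median of -0.29. The median was 0.41 over second probes, which only 4 members have, each with the same sign as its brightest probe. CREB3L2, a membrane-bound factor of the secretory pathway, was at 0.97.

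**Figure D2:**
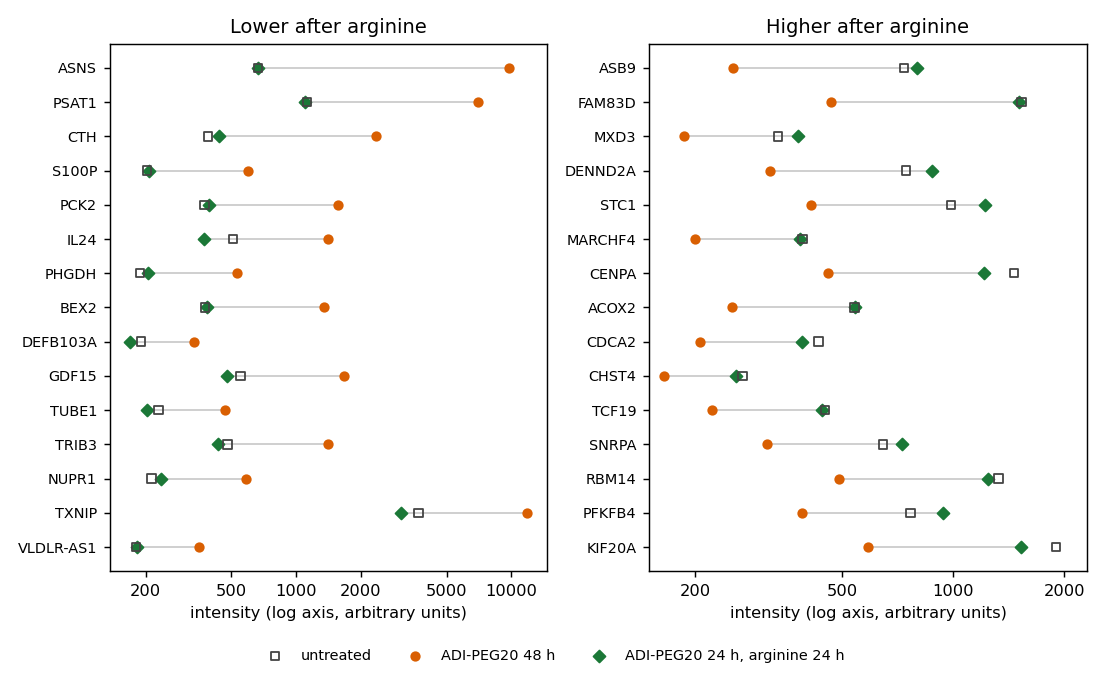
Array intensity (log axis, arbitrary units) of the 15 genes furthest below and the 15 furthest above their ADI-PEG20 level, among genes above background on both arrays. Squares are untreated cells, circles continued ADI-PEG20 and diamonds arginine return, 1 array each. In each row the diamond lies nearer to the square than to the circle, as for ASNS at 665 beside 664 and 9722.

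Cytosolic aminoacyl-tRNA synthetases, which load amino acids onto tRNAs, were mostly lower. Of 23 listed, 19 had a probe and 18 were above background, all on both arrays. Of these, 14 were lower, 9 of them by 2-fold or more, none was higher by 2-fold, and the median was -0.91. YARS1, for tyrosine, read 1557 untreated, 4174 with ADI-PEG20 and 1214 after arginine, a difference of -1.89. AARS1 differed by -1.58, MARS1 by -1.54 and SARS1, for serine, by -1.48. WARS1, for tryptophan, gave -1.41 on its brightest probe and -1.40 on the other. The enzyme for arginine itself was not among those that stood apart. RARS1 read 4043, 4401 and 4182, a difference of -0.08. HARS1, for histidine, was on the other side and read 1535, 882 and 1368, a difference of 0.71. FARSB and QARS1, for phenylalanine and glutamine, were also higher, by 0.39 and 0.36.

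The mitochondrial synthetases were nearer to 0. Of 16 above background, 12 were lower but none by 2-fold, with a median of -0.23. SARS2, at 0.98, and FARS2, at 0.76, were higher, while NARS2 was at -0.79. The mitochondrial and cytosolic enzymes for serine, SARS2 and SARS1, were thus on opposite sides.

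Amino acid transporters were lower in most cases but not as a whole. Of 32 listed, 22 were above background on at least 1 array, 16 of them on both, and 16 were lower and 6 higher, 3 of the latter by 1.5-fold or more as measured. With dim members at their bound, 5 were lower by 2-fold or more and none higher, and the median as measured was -0.61, or -0.15 over all 31 members with a probe. SLC1A5, the neutral amino acid transporter that carries glutamine, read 626 untreated, 1508 with ADI-PEG20 and 630 after arginine, a difference of -1.45. SLC3A2, the heavy chain shared by several exchangers, read 2258, 5004 and 2323, a difference of -1.15, with -1.23 on its other probe. SLC7A5, a light chain that pairs with it for leucine and other large amino acids, was at -0.67.

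Several transporters were above background on 1 array only, which fixes their direction, and could only be bounded, on background-corrected values. SLC6A9, a glycine transporter, read 170, 374 and 159 and was at least 5.95-fold lower after arginine. SLC43A1, of large neutral amino acids, was at least 2.49-fold lower, and SLC7A11, the cystine and glutamate exchanger, at least 2.20-fold lower. SLC7A1, the main carrier of arginine into most cells, read 1599 untreated, 2958 with ADI-PEG20 and 1639 after arginine, a difference of -0.90. SLC38A2, an amino acid transporter known to respond to starvation, was at -0.46. SLC7A8 was the member furthest on the other side and was seen above background only after arginine, where it was at least 1.24-fold higher.

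The arginine and polyamine genes did not lie to one side. Of 36 listed, 28 were above background on at least 1 array, 24 of them on both. Of the 28, 13 were lower and 15 higher, 3 of them lower by 2-fold or more, and the median was 0.03. NAGS, ATP13A3 and CKMT1A were above background only under ADI-PEG20 and so had to be lower. OAZ3, above background only after arginine, had to be higher. Listed genes above background on neither array were ARG1, ARG2, OTC, NOS1, NOS2, GATM, AGMAT and CKMT1B. ASS1, argininosuccinate synthase, which together with ASL rebuilds arginine from citrulline, read 522 untreated, 1042 with ADI-PEG20 and 576 after arginine. Its difference was -1.02, with -1.16 on another probe. ASL read 173, 169 and 171, near background on every array, with a difference of 0.08.

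In polyamine metabolism, the enzyme that starts synthesis and the enzyme that starts breakdown were both lower. ODC1, ornithine decarboxylase, read 2733, 4522 and 2279, a difference of -1.03, and SAT1, the spermidine and spermine acetyltransferase, read 3157, 5124 and 2512, a difference of -1.07. After arginine both were below the untreated reading as well. OAZ2, an antizyme that targets ornithine decarboxylase for degradation, did not follow them. It read 364 untreated, 546 with ADI-PEG20 and 645 after arginine, a difference of 0.30, so that its level after arginine was the highest of the 3. The synthases SRM and SMS were at -0.04 and 0.20, and AMD1, which supplies their aminopropyl donor, at 0.22. PAOX, an oxidase of acetylated polyamines, was at 0.80 and SMOX, spermine oxidase, at -0.50.

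Genes of the endoplasmic reticulum stress response were near 0 as a list but not for every member. Of 23 above background, 12 were lower, 2 of them by 2-fold or more, and the median was -0.05. XBP1, a transcription factor of the unfolded protein response, read 1907 untreated, 5330 with ADI-PEG20 and 1745 after arginine, a difference of -1.68, with -1.52 on its other probe. HSPA5, the main chaperone of the organelle, read 518, 911 and 510, a difference of -1.02. HYOU1, another chaperone, was at -0.80 and DNAJB9 at -0.51, while SDF2L1 was at 0.40. The array does not tell spliced from unspliced XBP1.

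Mitosis genes were higher after arginine on the brightest probe of each. All 54 genes listed passed the background limit, all but MKI67 on both arrays. On that probe none was lower, 22 were higher by 2-fold or more and 41 by 1.5-fold, and the median was 0.91. In bulk RNA, fewer cells in mitosis and less of each transcript per cell cannot be told apart. FAM83D, which recruits a kinase to the spindle, read 1530 untreated, 465 with ADI-PEG20 and 1505 after arginine, a difference of 2.01. CENPA read 1460, 457 and 1215, a difference of 1.70, and 1.13 on its other probe. BIRC5, survivin, a subunit of the chromosomal passenger complex, read 1453, 635 and 1543, a difference of 1.47, and 1.497 on its other probe. The other BIRC5 probe read 174 with ADI-PEG20, close to background.

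The passenger complex, the spindle checkpoint and the anaphase machinery differed in size. INCENP, the scaffold of the passenger complex, was at 1.38, CDCA8 at 1.09 and its kinase AURKB at 1.11. AURKA, the spindle pole kinase, read 5895, 2199 and 4721, a difference of 1.15, and its level after arginine lay between those of the other arrays. SGO1, which protects cohesion at centromeres, was at 1.33 and DLGAP5, a spindle protein, at 1.28, with 1.41 and 1.13 on their other probes. MKI67 read 227, 157 and 236 and was at least 2.71-fold higher. The smallest differences were those of CDC25B, a phosphatase that activates cyclin-dependent kinases, at 0.00, BUB3, of the spindle checkpoint, at 0.09 and MAD2L1, of the same checkpoint, at 0.20. Of 21 mitosis genes with a further probe, 20 had the same sign on it, and the exception was MAD2L1 at -0.03. CCNB1 and CDK1, which form the mitotic kinase, were at 0.92 and 0.76, and TOP2A, the topoisomerase that untangles chromosomes, was at 1.31. BUB3, MAD2L1, INCENP, CDCA8, AURKB, CCNB1, CDK1 and TOP2A were picked out after their values were seen.

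The mitotic kinesins, motor proteins of the spindle, were all on the same side. Of 12 listed, 11 had a probe, and each of these was higher, 6 of them by 2-fold or more, with a median of 1.004. KIF20A, required to complete cell division, read 1900 untreated, 588 with ADI-PEG20 and 1524 after arginine, a difference of 1.59. KIFC1, a minus-end motor, was at 1.41, KIF2C, which takes microtubules apart at centromeres, at 1.32 and KIF14 at 1.07. KIF20B was lowest at 0.45.

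DNA replication genes were higher by less. All 48 genes were above background on at least 1 array, 44 of them on both. Of the 48, 42 were higher, 4 of them by 2-fold or more, and 6 were lower, with a median of 0.61. CDC45, a subunit of the replicative helicase, read 1161, 566 and 1116, a difference of 1.16. LIG1, the ligase that joins Okazaki fragments, read 424, 263 and 451, a difference of 1.21. CHAF1A, of the chromatin assembly factor, and GINS4, another helicase subunit, were above background only after arginine and so had to be higher. They were at least 2.13-fold and 2.07-fold higher. ORC5, of the origin recognition complex, was lowest at -0.24, with -0.70 on its other probe.

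Repair and nucleotide synthesis genes stood further from the mitotic pattern. Of 22 DNA repair genes above background, 20 were higher and 1 by 2-fold or more, with a median of 0.45. That gene was BARD1, the partner of BRCA1, at 1.06, and the recombination gene XRCC3 was the lowest at -0.65. In nucleotide synthesis 12 of 24 genes were lower, around a median of 0.02. RRM2, the regulated subunit of ribonucleotide reductase, read 742, 436 and 924, a difference of 1.35. TYMS, thymidylate synthase, was at 0.99, and IMPDH2, of guanine nucleotide synthesis, at -0.54.

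Regulators of G1 and S phase were spread about 0, with a median of 0.06 and 11 of 26 lower. CCND2, cyclin D2, read 142 untreated, 343 with ADI-PEG20 and 155 after arginine and was at least 5.21-fold lower. Its other probe read 213 with ADI-PEG20 and was within background after arginine. CDKN2D, an inhibitor of the cyclin D kinases, was higher by 1.36, and SKP2, which marks the inhibitor p27 for degradation, by 0.97. E2F8, a repressor of E2F targets, read 201, 162 and 206 and was above background only after arginine, which fixes its direction. On background-corrected values E2F8 was at least 1.99-fold higher.

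**Figure D3:**
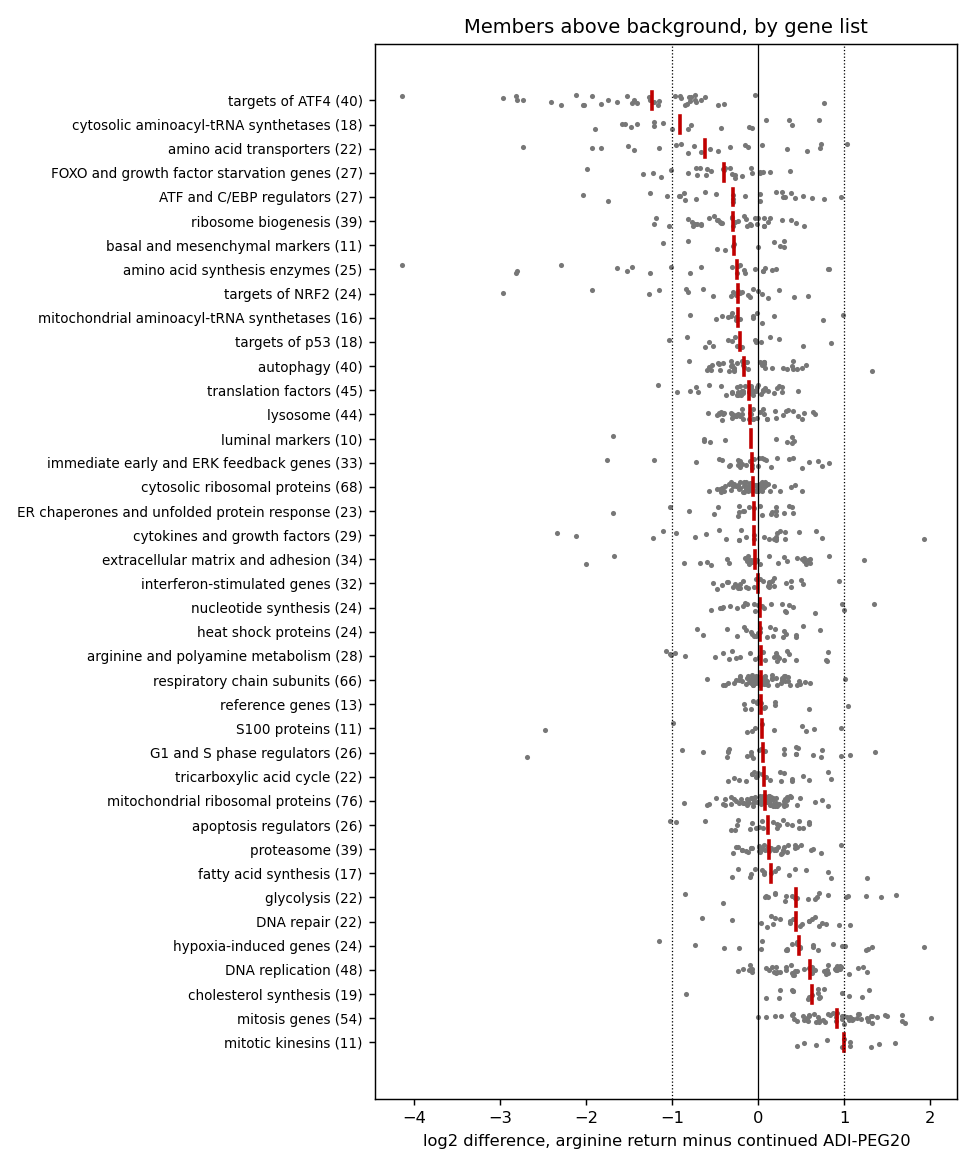
Log2 difference, arginine return minus continued ADI-PEG20, of every member above background (grey points) of the gene lists with at least 10 such members, with the list median in red and the number of members in brackets. ATF4 targets lie furthest to the left with a median of -1.24 and mitotic kinesins furthest to the right with 1.004.

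The share of promoters with a match to each element is given as a description of the letters in the window, and not as evidence of binding. RefSeq promoters were found for 8965 of the 11062 genes tested. TGATGNAA was present in 1.73% of these and in 3.67% of all 27305 promoters in the table. It was found in 14 of 157 promoters of genes lower by 2-fold or more (8.92%) and in 3 of 183 of those higher (1.64%). Among ATF4 targets 6 of 33 promoters held it, and among cytosolic synthetases 5 of 15. The 10 genes of these lists with a match were ASNS, CHAC1, ATF3, SLC3A2, SLC7A1 and NARS1, and AARS1, MARS1, IARS1 and TARS1. PSAT1 and CTH, at -2.82 and -2.81, had none of these letters in the window shown by RefSeq.

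TTTGAA was present in 9.97% of promoters of the genes tested and in 15.43% of all promoters. It was found in 42 of 183 promoters of genes higher by 2-fold or more (22.95%), in 15 of 157 of those lower (9.55%) and in 29 of 44 promoters of mitosis genes (65.91%). Of the 11 kinesin promoters 8 held it, and of 41 promoters of DNA replication genes none did. Within the mitosis list the letters did not go with the size of the difference, as the 29 genes with a match had a median of 0.91 and the 15 without one a median of 0.98. The CCAAT box was present in 37.52% of promoters of the genes tested and in 72.73% of those of mitosis genes. It was as frequent in cholesterol synthesis (82.35%) and in the endoplasmic reticulum list (77.27%), whose median lay near 0, so it was not particular to mitosis genes. The E-box, CACGTG, was in 10.61% of promoters of the genes tested, 14.65% of those lower by 2-fold or more and 9.29% of those higher. The CCAAT box was also in 24 promoters of DNA replication genes. No other element searched contains its letters.

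**Figure D4:**
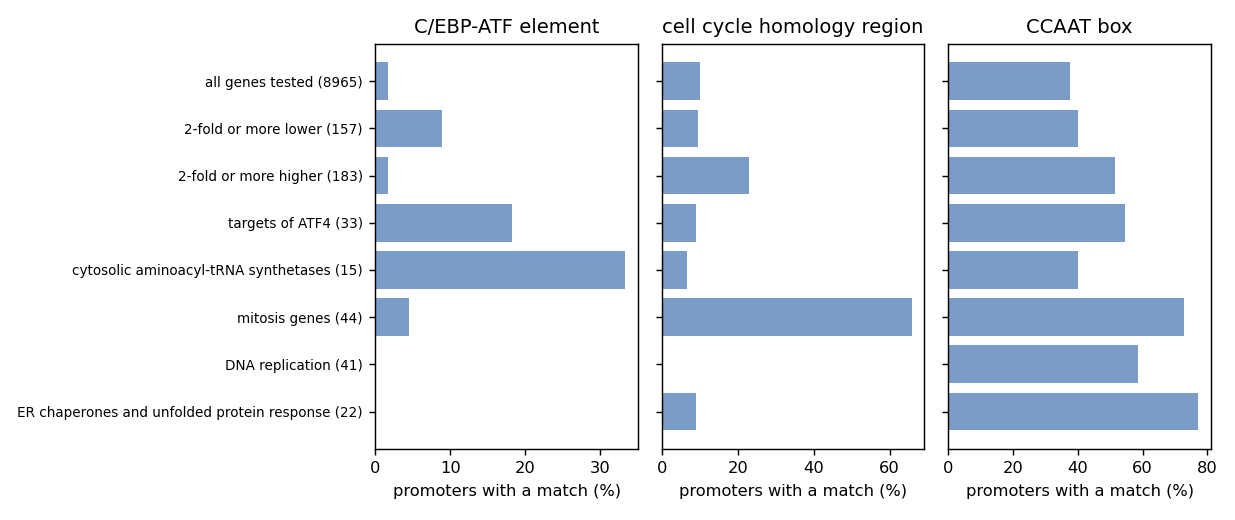
Share of RefSeq promoters (percent, 300 bases each) with at least 1 match to 3 elements, for all genes tested and for groups of genes, with the number of promoters in brackets. The C/EBP-ATF element stands out for cytosolic synthetases (33.33%) and the cell cycle homology region for mitosis genes (65.91%).

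Glycolysis and hypoxia-induced genes, which share members, were mostly higher. Of 22 glycolysis genes above background, 20 were higher, 5 of them by 2-fold or more, with a median of 0.44. PFKFB4, which sets the level of an activator of phosphofructokinase, read 766 untreated, 390 with ADI-PEG20 and 936 after arginine, a difference of 1.60. ALDOC, an aldolase, was at 1.43, ENO2, an enolase, at 1.26 and PGK1, phosphoglycerate kinase, at 1.05. SLC2A3, a glucose transporter, was on the other side at -0.85. Of 24 hypoxia-induced genes, 20 were higher, 5 of them by 2-fold or more, with a median of 0.47.

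Some hypoxia-induced genes ended above their untreated level. STC1, the secreted glycoprotein stanniocalcin, read 987, 412 and 1222, a difference of 1.92. BNIP3, a receptor for mitophagy, read 10373, 5390 and 13337, a difference of 1.33. In both the order was the same, with ADI-PEG20 lowest, untreated cells next and arginine return highest. ANKRD37 was at 1.28 and EGLN1, a prolyl hydroxylase that marks HIF alpha subunits for degradation, at 1.26. MXI1, a MAX-binding repressor, was lower by 1.15, and VEGFA, an angiogenic factor that is also an ATF4 target, was lower by 0.74.

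Cholesterol synthesis genes were higher in 18 of 19 cases, 3 of them by 2-fold or more, with a median of 0.63. HMGCS1, the synthase that makes the precursor of mevalonate, read 836 untreated, 613 with ADI-PEG20 and 1257 after arginine, a difference of 1.21. INSIG1, the sterol-regulated protein that holds SREBP in the endoplasmic reticulum, read 2402, 1574 and 3145, a difference of 1.06, and 1.33 on its other probe. ACAT2, of cytosolic acetoacetyl-CoA synthesis, read 3852, 1886 and 4442, a difference of 1.29, and 0.65 on its other probe. For these 3 genes the level after arginine was the highest of the arrays. SREBF2, the transcription factor of the pathway, read 192, 195 and 163 and was at least 1.75-fold lower, close to background. Fatty acid synthesis genes had a median of 0.15, with FADS2, a desaturase, at 1.27.

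The remaining metabolic lists lay close to the median of all genes. Respiratory chain subunits had a median of 0.04 over 66 genes, with NDUFB1, of complex I, the only member past 2-fold at 1.01. Tricarboxylic acid cycle genes were at 0.07 over 22, with PC, pyruvate carboxylase, at 0.85, and mitochondrial ribosomal proteins were at 0.08 over 76. Proteasome genes were at 0.13 over 39, with 10 lower, and PSMD3 was highest at 0.96. Lysosome genes were at -0.10 over 44 and autophagy genes at -0.17 over 40, with GABARAPL1, a member of the ATG8 family, at -0.81.

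Genes that make ribosomes, as distinct from the ribosomal proteins, were lower in most cases. Of 39 ribosome biogenesis genes, 29 were lower, 3 of them by 2-fold or more, with a median of -0.29. MYC, a transcription factor that drives this programme, read 3064, 6222 and 2757, a difference of -1.21, and -1.10 on its other probe. RRN3, an initiation factor of RNA polymerase I, was at -1.19 and RRP12 at -1.04. NOP16, a nucleolar protein, was at -0.81 with -0.82 on its other probe. The 68 cytosolic ribosomal protein genes stood at a median of -0.06, with none past 1.5-fold. Translation factors had a median of -0.10 over 45, and EIF2S2, a subunit of eIF2, was at -0.95.

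Of 27 FOXO targets and genes of growth factor starvation above background, 25 were so on both arrays. Of the 27, 22 were lower, 5 of them by 2-fold or more, or 4 with dim members at their bound. The median was -0.40. TXNIP, which binds thioredoxin and limits glucose uptake, read 3712 untreated, 11848 with ADI-PEG20 and 3067 after arginine, a difference of -1.99. TSC22D3, a leucine zipper protein induced by glucocorticoids, was at -1.34 and -1.54 on its other probe, and FOXO1 itself at -1.22. The antioxidant list, targets of NRF2, stood at a median of -0.24, and several of its lowest members, CHAC1, SLC7A11 and SLC3A2, are also ATF4 targets. HMOX1, heme oxygenase, which is not in the ATF4 list, was at -1.27. The p53 targets stood at a median of -0.21, with GADD45A, a growth arrest gene, at -1.03 and -1.09 on its other probe, and DDB2, of DNA damage recognition, at 0.84.

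Among signalling and secreted proteins a few genes stood far from a list near 0. Cytokines and growth factors had a median of -0.05 over 29. IL24, a cytokine of the IL-10 family, read 509 untreated, 1400 with ADI-PEG20 and 374 after arginine, a difference of -2.34. Its other probe gave -2.29 but read 169 after arginine, close to background. GAL, galanin, read 146, 282 and 190, a difference of -1.23, and EGFR was at -1.10, with -0.29 on another probe. In the matrix list, with a median of -0.04 over 34, MMP1, interstitial collagenase, read 371, 1066 and 417, a difference of -1.67. MMP3, stromelysin, read 149, 222 and 142 and was above background only under ADI-PEG20, which fixes its direction. On background-corrected values MMP3 was at least 2.38-fold lower. COL13A1, a transmembrane collagen, was higher by 1.23. KLF10, in the list of immediate early genes, was at -1.76, with -2.55 and -0.37 on further probes. The probe at -2.55 read 170 after arginine, close to background.

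Interferon-stimulated genes had a median of 0.00 over 32, with IFIT1 at 0.94 and MX1 at -0.53. Heat shock proteins had a median of 0.02 over 24. Apoptosis regulators had a median of 0.12 over 26, with the death receptor TNFRSF10A at -1.03. Of the cytidine deaminases of the APOBEC3 family, 5 were above background, and APOBEC3B read 464, 266 and 430, a difference of 1.10. The 13 reference genes often used to scale such data had a median of 0.04, but PGK1, also a glycolysis gene, was among them at 1.05.

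Among other genes far below their ADI-PEG20 level, S100P, a calcium-binding protein, read 203 untreated, 595 with ADI-PEG20 and 206 after arginine, a difference of -2.48. BEX2 read 378, 1342 and 384, a difference of -2.22, and TUBE1, epsilon tubulin of centrioles, read 230, 469 and 202, a difference of -2.11. The other TUBE1 probe read 225 with ADI-PEG20 and was within background after arginine. For S100P and BEX2 the level after arginine was slightly above that of untreated cells, and for TUBE1 it was slightly below. MKX, a homeobox gene, was at least 7.94-fold lower, from 458 under ADI-PEG20 to background, and without background correction its difference was -1.58. The defensin gene DEFB103A was at -2.17 with -0.97 on its other probe, and VLDLR-AS1, an antisense RNA, at -1.92. DEFB103A read 169 and VLDLR-AS1 183 after arginine, close to background, so these sizes rest on the background correction. MID1IP1, of fatty acid synthesis control, was at -1.42 and -1.46.

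On the higher side, ASB9, an adaptor of a ubiquitin ligase that binds creatine kinase, led among genes above background on both arrays. It read 736 untreated, 253 with ADI-PEG20 and 799 after arginine, a difference of 2.37, and 2.70 on its other probe. The other ASB9 probe read 179 with ADI-PEG20, close to background. MXD3, a MAX partner, read 335, 186 and 379, a difference of 1.98, and DENND2A, a regulator of RAB proteins, read 745, 318 and 876, a difference of 1.94. TCF19 had 3 probes above background, of which the brighter gave 1.66 and 1.305 and the dimmest was within background under ADI-PEG20. MARCHF4, a ubiquitin ligase, was at 1.745, ACOX2, a peroxisomal oxidase, at 1.70, SNRPA, a protein of the U1 particle, at 1.66 and RBM14 at 1.60. CHST4, a sulfotransferase, was at 1.66 and read 268 untreated, 165 with ADI-PEG20 and 258 after arginine. Its ADI-PEG20 reading was close to background, so this size rests on the background correction. ARTN, a ligand of the RET receptor system, read 215, 141 and 260 and was at least 3.27-fold higher. CXCR4, the receptor of the chemokine CXCL12, was at 1.34 and 1.12 on its other probe.

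Several probes for a gene gave the same direction more often as the difference was larger. Of 2949 genes with a further probe above background, 2183, or 74.03%, had the same sign on the 2 brightest probes. Among genes under 0.25 on the brightest probe the share was 63.01%, and between 0.5 and 1 it was 89.09%. For differences of 1 to 2 it was 93.15% of 73 genes, and all 9 genes beyond 2 had the same sign. Across these genes, which are not independent replicates, Pearson's r between probes was 0.68 and Spearman's rho 0.64. The spread between probes corresponds to an SD of 0.27 for the difference of 1 probe, which covers the probes and transcript forms on 1 pair of RNA samples and not the spread between cultures.

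Of the 48 genes lower by 2-fold or more that had a further probe, 46 had the same sign on it, 40 were past 1.5-fold and 28 past 2-fold. Of the 34 higher, 31 had the same sign, 29 were past 1.5-fold and 19 past 2-fold. The further probe gave somewhat smaller values, with medians of -1.10 against -1.23 for the lower genes and 1.04 against 1.14 for the higher ones. All 10 ATF4 targets with a further probe had the same sign on it. Of 607 genes with 3 or more probes above background, 14 were past 2-fold on the brightest, and in each of the 14 all probes had the same sign. In 2 of them, CTH and TCF19, every probe was past 2-fold as measured.

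Probes disagreed for few genes by a wide margin. PHLDA1, a gene of growth factor feedback, had -0.72 on a bright probe, from 11462 to 7022, and 0.70 on a dim one, from 273 to 368. CNOT4, a ubiquitin ligase of the mRNA deadenylation complex, had 0.59 on its brightest probe and -0.63 and -0.43 on others. LRRC45, at least 2.95-fold higher on its brightest probe, was at -0.58 on another, and both probes were close to background. For PCK2, PYCR1, KLF10 and ATF4 the dimmest probe, close to background, kept the sign but gave a smaller difference than the brightest. Whether such probes read other transcripts was not tested.

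**Figure D5:**
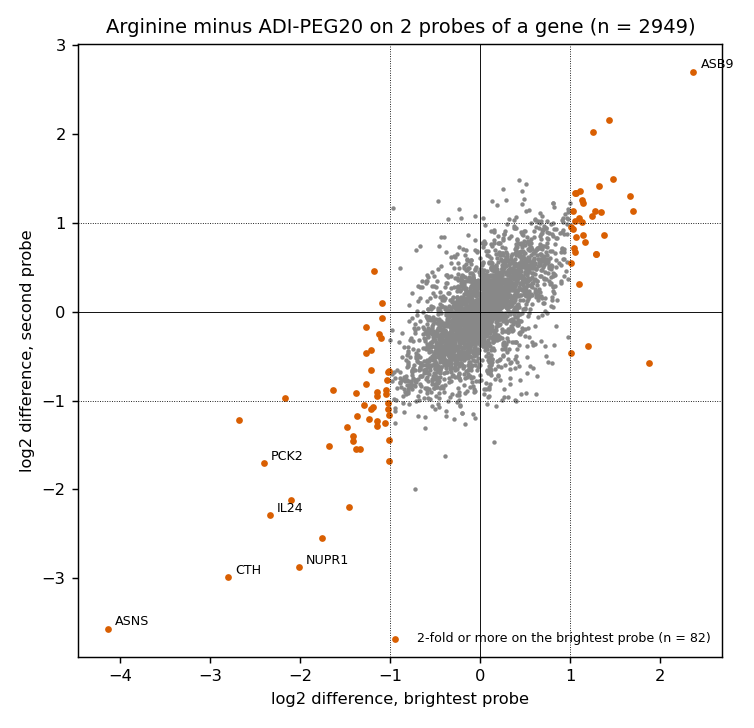
Log2 difference, arginine return minus continued ADI-PEG20, on the brightest probe (x axis) and the next brightest (y axis) of 2949 genes with 2 probes above background. Orange points are the 48 lower and 34 higher genes past 2-fold on the brightest probe, dotted lines mark 2-fold, and ASNS, CTH, IL24, PCK2 and NUPR1 lie low on both axes and ASB9 high on both.

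The labelled cell line was checked against markers. Of the basal and mesenchymal markers 11 of 15 with a probe were above background, among them VIM, CD44, CAV1, AXL and MSN, with VIM at 15429, 13081 and 16031. KRT5, KRT14, TWIST1 and FN1 of that list were not. Of the luminal markers 10 of 14 with a probe were above background, so the separation from luminal cells was not clean. They were KRT8, KRT18, KRT19, XBP1, MLPH, TFF3, GATA3, EPCAM, CDH1 and ERBB2, with KRT19 at 2125, 1724 and 2269 and EPCAM at 1009, 1484 and 1002. ESR1, PGR, FOXA1 and TFF1 were not above background. Of the leukocyte markers 2 of 9 with a probe were above background, CD14 and CD68, at 0.16 and 0.02. Of the endothelial markers 2 of 7 were, PECAM1 and ESAM, at -0.18 and -0.10, and of the fibroblast markers 3 of 8, PDGFRB, COL1A2 and LUM, at 0.57, 0.44 and -0.48. PTPRC, CDH5 and COL1A1 were among the members of these lists at background. The summed intensity of the leukocyte markers was 4489 untreated, 4344 with ADI-PEG20 and 4396 after arginine.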

How the data were processed

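Biotin-labelled RNA of MDA-MB-231 cells was read on 1-colour Illumina arrays, per the labels' protocols, and each of the 3 arrays was assigned by its title and treatment label. The authors deposited a linear probe intensity for 47231 probes. The submitters' processing notes name GenomeStudio, and the normalization is not given in the sources used here. All arrays shared a minimum of 105.82 and a maximum of 28716.5, with medians of 149.35, 149.35 and 149.34, so a global difference in RNA content would not show. A second table, with 6 columns whose names match no single sample label, was not used, so limma's neqc on it, with a detection p as the filter, was not run.

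From the deposited intensity, background was removed by normexp (background mode 137.15, SD 8.86, exponential mean 424.8) and log2 was taken after adding 16, in Python 3.11.15 with numpy 2.4.6 and scipy 1.17.1. These steps were tested on simulated data. A probe was above background over 163.7, the mode plus 3 SDs, which 37.8% of probes passed on each array, and the number of arrays limits the precision. Of 30121 probes with a gene in the platform annotation, 30113 had 1 gene and 8 several, which were not named, and 17110 had none listed. Symbols came through the gene identifier for 30074 probes and the accession for 18, 21 kept the platform's symbol, and 11 were updated. Each gene was read from its probe of highest mean, and entered if that probe passed on either array. Where only 1 array passed, the fold is a bound on background-corrected values. It was taken against the lowest passing value of the dim array, unless the probe itself read more there. Differences were counted at 2-fold, with no test.

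The 44 gene lists and the genes named were chosen with earlier results of these data known. The named genes were the 15 furthest from 0 in each direction on both arrays, the 10 with the largest difference supported by another probe, the 3 of largest bound, and, list by list, the 4 members furthest from 0 and the member furthest to the other side. They also included genes with opposite probes, all detected ATF4 targets and the arginine and polyamine list. Placeholder names were left out. Further members the text names, and 1 list on snoRNA host genes, were chosen after their values were seen. Promoters are those of RefSeq, matched by gene, 250 bases before to 50 after the start. Alternatives covered the background correction, offset, filter, choice of probe, centring and an intensity-dependent loess.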

Additional observations from a re-analysis of the deposited data

How the results depend on the processing

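No paired analysis was possible because each condition had 1 array, and no array could be left out. The counts of genes 2-fold or more lower and higher, 210 and 228, were 58 and 48 without background correction, 94 and 99 with an offset of 50, 135 and 151 over genes above background on both arrays, and 60 and 61 on the second brightest probe, which only 2949 genes have. The share of second probes with the same sign was 76.25% with a limit of 5 background SDs and 61.38% with no filter on dim probes. The median of ATF4 targets was -0.84 without background correction and -1.56 on second probes. On second probes, which fewer members have, medians were -1.16 for amino acid synthesis, -1.08 for transporters, -1.40 for cytosolic synthetases, 0.38 for G1 and S phase, -1.01 for FOXO targets, 0.24 for matrix genes, -1.085 for luminal markers and -0.91 for snoRNA host genes. Among list medians beyond the probe error of 0.27, the sign turned there for ATF and C/EBP regulators, at 0.41 over 4 members, and for basal and mesenchymal markers, at 0.11 over 7. Each of the 4 and 6 of the 7 kept the sign of its brightest probe, so fewer members set these medians. The gene LRRC45 was at -0.58 there, and the cause was not tested. Medians nearer to 0 also changed sign under some settings, among them on second probes autophagy at 0.07, arginine and polyamine genes at -0.12, heat shock proteins at -0.16 and matrix genes. With no filter on dim probes the medians were -0.15 for transporters, 0.13 for APOBEC3 genes and 0.10 for fibroblast markers, and without background correction that of fibroblast markers was 0.14. Luminal markers were at 0.21 with a limit of 5 SDs or above background on both arrays. All other list medians moved by less than 0.27 under the alternatives run. No other named gene past 2-fold turned its sign, but sizes moved by 0.27 or more in 92 of 262 named genes without background correction, in 45 with an offset of 50 and in 34 of 81 on second probes. Dim probes, close to the background limit, limit the size of a fold.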

Other observations

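Host genes of small nucleolar RNAs, which carry these RNAs in their introns and are known to be degraded in a translation-dependent way, were looked at as a group only after some of them were seen among the genes lower after arginine. The list was therefore chosen on these values and its counts are a description. Of 22 listed, 20 had a probe, 17 were above background on both arrays and 15 of these were lower, 4 of them by 2-fold or more, with a median of -0.55. SNHG1 read 2878 untreated, 8190 with ADI-PEG20 and 2644 after arginine, a difference of -1.68. SNHG15 read 1365, 3192 and 1299, a difference of -1.38, with -1.55 on its other probe. EPB41L4A-AS1 was at -1.26 and TAF1D at -1.02, with -0.67 on its other probe. ZFAS1 read 5816, 11936 and 6508, a difference of -0.89. SNHG6 and DANCR, at -0.00 and 0.05, and SNHG10, at 0.14, did not share this, while GAS5, SNHG3 and SNHG20 were not above background.

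No gene was listed for 17110 probes. Of these, 4519 exceeded background on either of the compared arrays, and 102 of these were lower and 94 higher by 2-fold or more. The shares were similar over the 14741 probes with a gene above background, at 1.95% lower and 2.07% higher. Of the genes lower by 2-fold or more, 15 of 210 were noncoding genes or pseudogenes in RefSeq, against 12 of 228 of those higher and 488 of 11062 of all tested. The median span of a gene was 28.5 kb for the lower, 21.2 kb for the higher and 27.6 kb for all genes tested.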
